A study of Drosophila melanogaster with 56 samples.

Results

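The acid lipases described here are the products of 5 Drosophila melanogaster genes, mag (magro), Lip1, Lip2, Lip3 and Lip4, out of 11982 genes named on the array. They were taken by name, with every probe set annotated to them, and each had 1: 1636583_at for mag, 1629710_at for Lip1, 1633667_at for Lip2, 1628076_at for Lip3 and 1624505_at for Lip4. The members were chosen by the measured values of mag, which differed in opposite directions in body and head after fasting, so the values of mag in body, palp and head are given as a description, with no test. Its values in antenna, and all values of the other members, could be tested.

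Acid lipases hydrolyse triglycerides and cholesterol esters. Those of insects resemble the gastric and lysosomal acid lipases of mammals, and animals use them both to digest dietary fat and to break down stored lipid inside cells. In the fly, mag is secreted into the gut lumen, acts on dietary triglyceride, also hydrolyses cholesterol ester in the intestine, and is a target of the nuclear receptor encoded by Hr96. Lip3 has been used as a marker of starvation in larvae, and Lip4 is a reported target of the transcription factor foxo. For Lip1 and Lip2 no role in a particular organ is given here.

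Transcripts were measured on 56 Affymetrix arrays, 1 per RNA sample, from 6 pools of flies. Flies were taken at 0 h, the baseline, and after 24 h and 48 h of fasting, and were divided into body (the fly without its head), palp (maxillary palp together with proboscis), antenna and head (without these chemosensory organs). Antenna had 5 arrays at 48 h, 5 at 24 h and 4 at 0 h, and each of the other parts had 4 at 48 h, 5 at 24 h and 5 at 0 h. The pools did not all span the times: pool 9 had arrays at 0 h alone, pool 7 had none at 0 h, pool 5 had none at 48 h outside antenna, and pool 6 had no antenna array at 0 h. The labels name no genotype, strain, sex or age. There were no fed flies at 24 h or 48 h, so fasting and the hours that passed cannot be told apart. Values are log2 signals on the authors' scale, which ran from 2.08, the floor, to 15.4 with a median near 4.04 on each array. A log2 signal of 4 is used below as the level that separates dim from bright. In such bulk samples fewer cells of a type and less RNA per cell cannot be told apart.

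The labelled parts carried their own markers: photoreceptor transcripts averaged above 14 in head, antennal olfactory genes 12.3 in antenna, and male accessory gland genes 13.7 in unfasted body at the median array. Photoreceptor transcripts were also present in palp, with group means of 9.16 to 10.2, and in antenna, at 9.26 to 9.30, against 2.13 to 2.56 in body. Gut transcripts were not confined to body. The serine proteases Jon65Aiii and alphaTry, made by the midgut, were bright on replicate 2 at 0 h of palp, antenna and head, on replicate 1 at 24 h of antenna, and on most head arrays. Those 4 named arrays and replicate 2 at 24 h of palp, which had a wide spread, were left out together in an alternative whose values stand beside the calls they end. Arrays kept in that alternative were not all free of these proteases. On replicate 4 at 24 h of palp Jon65Aiii was at 7.07 and alphaTry at 6.00. Jon65Aiii alone was above 4 on replicate 5 at 24 h of palp (4.93), replicate 2 at 48 h of palp (4.29) and replicate 3 at 48 h of antenna (4.60). The part of such material from other body parts in the values of the members was not tested.

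**Figure D1:**
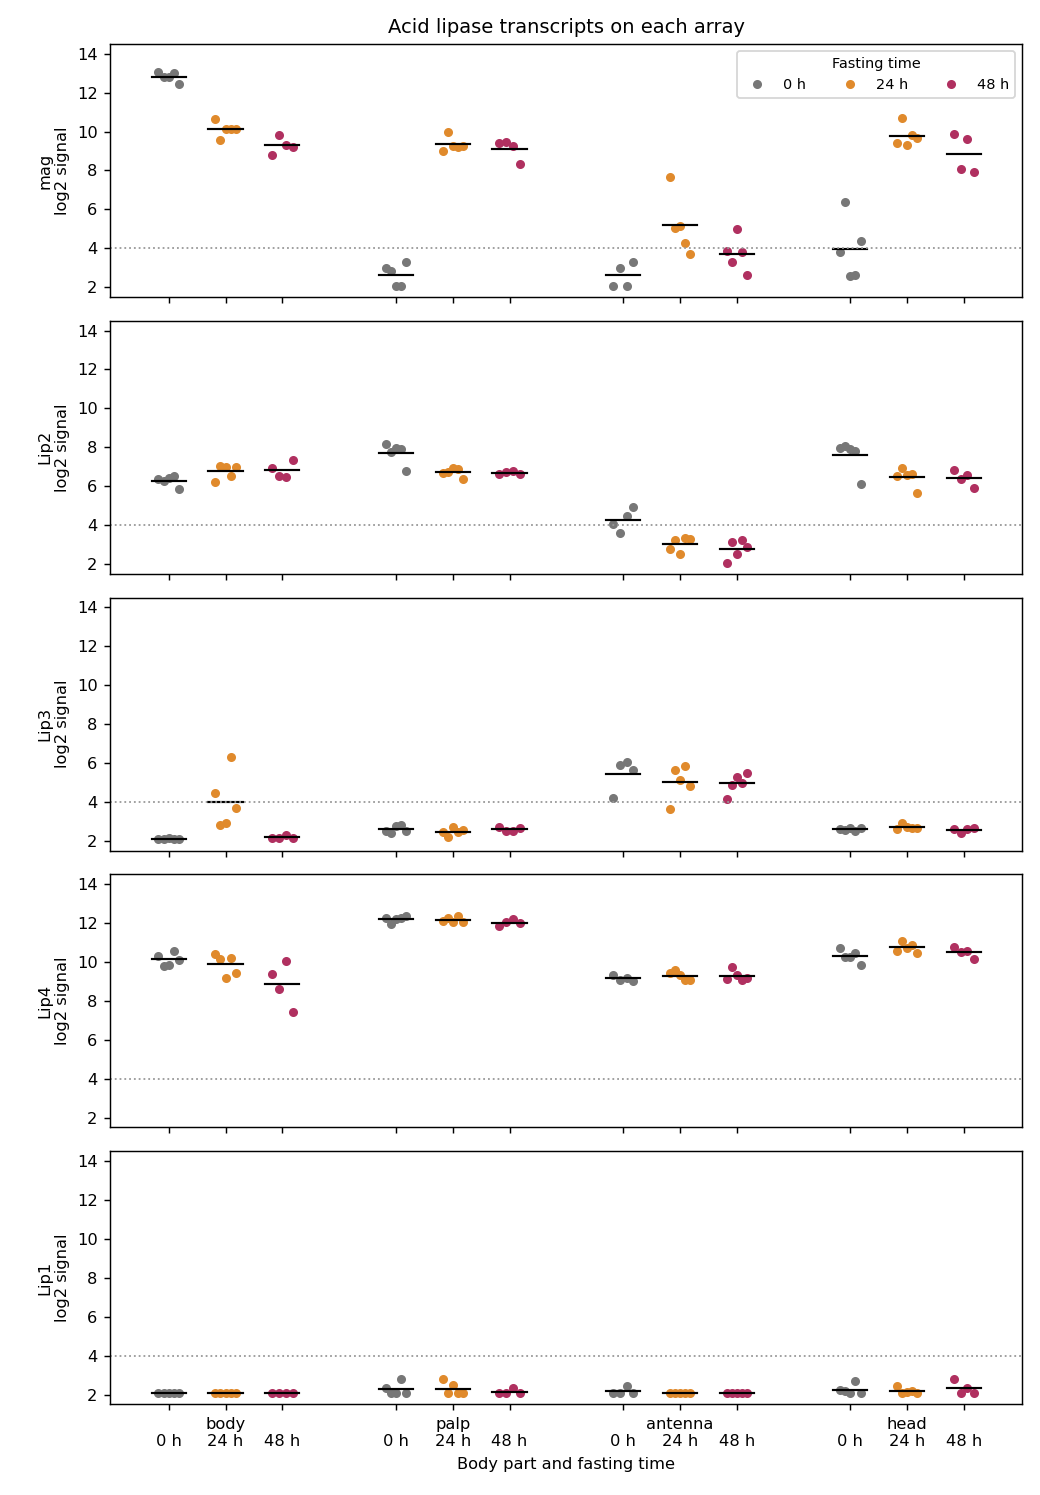
Log2 signal (vertical axis) of mag, Lip2, Lip3, Lip4 and Lip1 on each of the 56 arrays, by body part and fasting time (horizontal axis). Points are arrays, bars are group means and the dotted line is a log2 signal of 4. mag sits between 7.92 and 10.7 on all fasted palp and head arrays, whereas Lip1 lies below 4 everywhere.

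Before fasting mag was a transcript of the body. At 0 h it stood at 13.08, 12.79, 12.80, 12.99 and 12.45 in body, against 3.83, 6.39, 2.55, 2.61 and 4.38 in head. The body arrays lay within a narrow band, and none of the head arrays came within reach of them. In palp it was at 2.97, 2.85, 2.08, 2.08 and 3.29, and in antenna at 2.08, 3.00, 2.08 and 3.31. All 9 of those arrays were below 4. Unfasted body exceeded head by 8.87 ± 0.55 (log2, SE). Against palp, dim on every unfasted array, it was at least 453-fold higher, a bound set against a log2 signal of 4.

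After fasting mag was lower in body. At 24 h it measured 10.65, 9.55, 10.15, 10.14 and 10.12, and at 48 h 8.79, 9.82, 9.32 and 9.23, so each fasted body array was below every unfasted one. The mean was 10.12 ± 0.39 at 24 h (SD, n = 5), against 12.82 ± 0.24 at 0 h (SD, n = 5), a difference of -2.70 ± 0.21 (SE). At 48 h the mean was 9.29 ± 0.42 (SD, n = 4) and the difference from 0 h was -3.53 ± 0.23, which is 11.6-fold lower. The arrays of 48 h and 24 h overlapped, with a difference of -0.83 ± 0.23.

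In palp mag was higher after fasting. It measured 8.98, 9.97, 9.23, 9.20 and 9.28 at 24 h and 9.42, 9.46, 9.24 and 8.33 at 48 h. Every fasted palp array was more than 5 log2 units above the highest unfasted one, and the arrays of the 2 fasting times overlapped. The fitted differences from 0 h were 6.68 ± 0.29 at 24 h and 6.46 ± 0.30 at 48 h. Because all unfasted palp arrays were dim, the change is best given as a bound, and against a log2 signal of 4 it was at least 40.4-fold higher at 24 h and at least 34.6-fold higher at 48 h.

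Head gave the same order with more spread. mag measured 9.41, 10.67, 9.30, 9.80 and 9.65 at 24 h and 9.87, 8.05, 9.64 and 7.92 at 48 h. All 9 fasted head arrays lay above all 5 unfasted ones, of which replicate 2, at 6.39, was the highest. The differences from 0 h were 5.81 ± 0.65 at 24 h and 4.92 ± 0.69 at 48 h, and 6.42 and 5.53 without that replicate. Set against head, the change in body differed by -8.52 ± 0.74 at 24 h and -8.45 ± 0.79 at 48 h, and set against palp by -9.38 ± 0.74 and -9.99 ± 0.79, where the unfasted palp arrays were all dim.

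With these changes the body parts came to similar levels. The mean at 24 h was 10.12 in body, 9.33 in palp and 9.77 in head, and the mean at 48 h was 9.29 in body, 9.11 in palp and 8.87 in head. Ordered by mean over the 12 groups, unfasted body was highest and did not overlap with the next group. The following 6 groups were the fasted body, palp and head, and each overlapped with its neighbour. The antenna at both fasting times and all unfasted groups other than body formed the lower end.

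mag was tested in antenna alone. It measured 7.68, 5.06, 5.16, 4.27 and 3.73 at 24 h and 3.85, 3.29, 5.00, 3.81 and 2.63 at 48 h. All arrays of 24 h exceeded those of 0 h, while those of 48 h overlapped with 0 h. mag rose by 2.56 ± 0.68 at 24 h (limma adjusted p = 0.0434), at least 2.26-fold, in a comparison that called 5.73% of the features tested. It entered that test through the fasted arrays, since it reached 4 on 4 of 5 arrays at 24 h and 1 of 5 at 48 h, against 0 of 4 at 0 h. A gene dim at 0 h could enter only where fasted arrays were brighter, so the call is no independent support for a rise. The call was lost with the pool as a block (2.72, limma adjusted p = 0.0907), with no filter on dim probe sets (adjusted p = 0.115) and in 8 of 14 fits that each left out 1 array (limma adjusted p up to 0.0907). Those arrays were all 4 of 0 h, replicates 2 and 3 of 24 h and replicates 1 and 5 of 48 h. At 48 h the difference of 1.10 ± 0.68 did not pass (limma adjusted p = 0.286), where 17.6% of features were called. The brightest antenna array for mag, replicate 1 at 24 h, was also bright for Jon65Aiii at 10.48 and for the male accessory gland list. The 11 entries of that list, which count the gene SP under both its names, averaged 11.4 there. Without that array the difference was 1.94 and was called (limma adjusted p = 0.0286), with a bound of at least 1.47-fold, and with the midgut level as a covariate it was 2.77 (limma adjusted p = 0.0179).

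**Figure D2:**
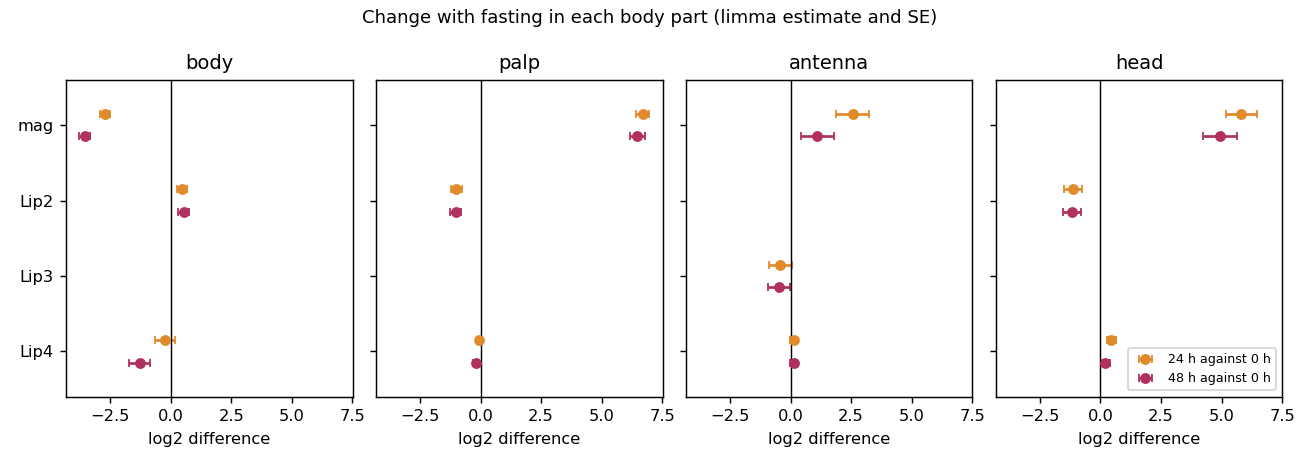
Log2 difference from 0 h (horizontal axis) of each member that passed the filter on dim probe sets, by body part, at 24 h and 48 h; points are limma estimates and bars their standard errors. mag lies left of 0 in body and right of 0 in palp and head, while Lip2 lies left of 0 in palp and head.

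Since mag is known as a gut transcript, other gut transcripts were read on the same arrays. The midgut level is the mean log2 signal of 4 defining genes: the proteases Jon65Aiii and alphaTry and the maltases Mal-A1 and Mal-A6. In palp it ranged from 6.36 to 8.51 at 24 h, from 6.29 to 7.20 at 48 h and from 6.43 to 12.5 at 0 h, and the 3 ranges overlapped. That level was carried by the maltases, which were bright on every palp array. Over the 9 fasted palp arrays Jon65Aiii ranged from 2.14 to 7.07 and was below 4 on 6 of them, and alphaTry ranged from 2.08 to 6.00 and was below 4 on 8. mag on the same 9 arrays ranged from 8.33 to 9.97. At 0 h palp replicate 2 had Jon65Aiii at 12.96 and mag at 2.85. With the midgut level as a covariate the palp differences were 6.71 at 24 h and 6.50 at 48 h.

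The cardia is the valve between foregut and midgut. Its peritrophic matrix genes Peritrophin-15a and Peritrophin-15b stayed at or below 2.62 on all 9 fasted palp arrays. On the fasted body arrays Peritrophin-15a ranged from 8.17 to 10.1 and Peritrophin-15b from 7.83 to 10.2. At 0 h palp replicate 2 had Peritrophin-15a at 9.31 and Peritrophin-15b at 5.57, with mag at 2.85. The third defining cardia gene, Pgant4, a glycosyltransferase, went the other way: it ranged from 9.96 to 10.7 at 24 h and from 12.0 to 13.1 at 48 h in palp, against 2.72 to 3.47 at 0 h. Its part in the mag result was not tested. The full list of 9 cardia and foregut genes averaged 5.65 at 24 h and 6.08 at 48 h in palp, against 5.36 at 0 h.

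In head the midgut level was higher at 24 h on most arrays. It ranged from 10.9 to 13.0 at 24 h and from 6.63 to 11.4 at 48 h, against 2.63 to 13.7 at 0 h. All unfasted arrays but replicate 2 were at 9.91 or lower, below every array of 24 h. The differences of means from 0 h, 4.27 at 24 h and 1.48 at 48 h, did not pass an exact permutation test. The Benjamini-Hochberg adjusted p of that test, over 16 such tests, was 0.169 and 0.847. The cardia gene Peritrophin-15a measured in head 7.50, 4.71, 7.61, 2.77 and 6.12 at 24 h and 2.09, 2.38, 6.26 and 2.27 at 48 h, against 2.32, 8.23, 2.35, 2.33 and 2.69 at 0 h. It was thus bright on 4 of 5 head arrays at 24 h and 1 of 4 at 48 h, against 1 of 5 at 0 h, while Peritrophin-15b stayed below 4 on all of them. The unfasted head array with the highest midgut level, 13.7, had mag at 6.39, and the fasted one with the lowest, 6.63, had mag at 7.92. With the midgut level as a covariate the head differences were 4.56 at 24 h and 4.48 at 48 h. Of the 30 midgut genes matched, between 12 and 19 reached a log2 signal of 4 per head array at 24 h and between 7 and 17 at 48 h, against 0 to 19 at 0 h. The part of gut material in the mag of fasted head was not tested.

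In body the defining midgut genes were near the top of the scale throughout, with a midgut level of 13.95 ± 0.16 at 24 h (SD, n = 5) and 13.90 ± 0.10 at 48 h (SD, n = 4), against 14.11 ± 0.09 at 0 h (SD, n = 5). The whole list of 30 matched midgut genes was lower after fasting, with means of 8.98 and 8.62 at 24 h and 48 h, against 10.7 at 0 h. Between 23 and 25 of its genes were at or above 4 per array at 24 h and between 22 and 25 at 48 h, against 28 at 0 h. Its part in the lower mag of fasted body was not tested.

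**Figure D3:**
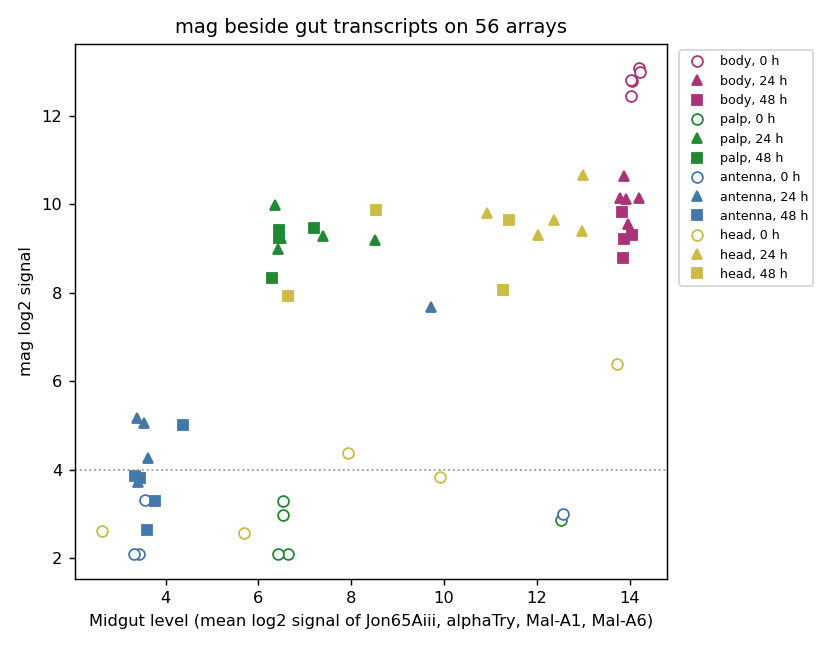
mag log2 signal (vertical axis) against the midgut level (horizontal axis, mean log2 signal of Jon65Aiii, alphaTry, Mal-A1 and Mal-A6) on 56 arrays; colour gives the body part, and open circles, triangles and squares give 0, 24 and 48 h. Fasted palp arrays have mag between 8.33 and 9.97 at midgut levels that overlap with those of unfasted palp, where mag is below 4.

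Lip2 was bright in palp, head and body and changed in the opposite sense to mag in palp and head. In palp it measured 6.69, 6.72, 6.93, 6.89 and 6.37 at 24 h and 6.60, 6.72, 6.80 and 6.62 at 48 h, against 8.18, 7.77, 7.94, 7.89 and 6.79 at 0 h. The unfasted arrays other than replicate 5 lay above every fasted one, and replicate 5 overlapped with them. Lip2 fell by 0.99 ± 0.21 at 24 h (limma adjusted p = 0.00457), where 23.5% of features were called, and it fell by 1.03 ± 0.22 at 48 h (limma adjusted p = 0.00337), where 33.1% were. Both calls were made in each of the 14 fits that left out 1 array and in each of 10 other settings.

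Lip2 in head showed differences of the same size with a wider spread. It measured 6.53, 6.92, 6.59, 6.61 and 5.64 at 24 h and 6.85, 6.39, 6.56 and 5.90 at 48 h, against 7.99, 8.09, 7.94, 7.82 and 6.11 at 0 h. Replicate 5 of 0 h fell among the fasted arrays, and the other 4 stood apart from them. Lip2 fell by 1.13 ± 0.36 at 24 h (limma adjusted p = 0.0451) and it fell by 1.16 ± 0.38 at 48 h (limma adjusted p = 0.0392), with 17.2% and 25.5% of features called. Leaving out 1 array ended the call in 11 of 14 fits at 24 h and 9 of 14 at 48 h, with limma adjusted p up to 0.112 and 0.123. At 24 h these were replicates 1 to 4 of 0 h, all 5 of 24 h and replicates 2 and 3 of 48 h; at 48 h they were replicates 1 to 4 of 0 h, replicates 1 and 4 of 24 h and replicates 2, 3 and 4 of 48 h. The differences themselves stayed between -1.50 and -0.93 at 24 h and between -1.53 and -0.99 at 48 h. The lowest limma adjusted p among these fits was 0.000821 at 24 h and 0.00064 at 48 h. The calls were also lost without the 5 arrays that stood apart, with differences of -1.004 at 24 h and -1.04 at 48 h (limma adjusted p = 0.0975 and 0.0828), and with no filter (limma adjusted p = 0.113 and 0.0996). With the midgut level as a covariate the 24 h call was lost (-1.28, limma adjusted p = 0.0826) and that of 48 h was made (-1.22, limma adjusted p = 0.0415).

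In body the Lip2 values leaned the other way. They read 6.24, 7.06, 6.98, 6.52 and 7.01 at 24 h and 6.95, 6.55, 6.49 and 7.36 at 48 h, against 6.35, 6.29, 6.43, 6.53 and 5.87 at 0 h. The groups overlapped, and neither 0.47 ± 0.21 at 24 h (limma adjusted p = 0.12) nor 0.54 ± 0.22 at 48 h (limma adjusted p = 0.0533) passed, in comparisons that called 21.2% and 50.8% of features. The 48 h difference passed in 3 of 8 other settings, the pool as a random block among them (limma adjusted p = 0.0348; lowest 0.0206), and without replicate 1 of 24 h or replicate 2 or 3 of 48 h, and that of 24 h with array weights (limma adjusted p = 0.0145) and without replicate 1 of 24 h (limma adjusted p = 0.036). The difference between parts did pass: the change in body exceeded that in head by 1.60 ± 0.40 at 24 h (limma adjusted p = 0.0056) and 1.71 ± 0.43 at 48 h (limma adjusted p = 0.00275), with 10.8% and 19.8% of features called. It exceeded that in palp by 1.46 ± 0.40 (limma adjusted p = 0.014) and 1.57 ± 0.43 (limma adjusted p = 0.00608), with 8.53% and 19.6% called. These 4 calls were also made in each of 5 other settings.

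Antenna held little Lip2. It measured 2.79, 3.23, 2.49, 3.32 and 3.28 at 24 h and 2.08, 3.12, 2.50, 3.26 and 2.90 at 48 h, against 4.06, 3.61, 4.47 and 4.91 at 0 h. All unfasted arrays were above all fasted ones, but the probe set reached 4 on too few arrays to be tested there. With no such filter the difference was -1.24 at 24 h (limma adjusted p = 0.0699) and -1.49 at 48 h (limma adjusted p = 0.0146).

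Markers of fat body and of hemocytes, the fly's blood cells, had lower averages in fasted head and palp. The 10 fat body genes averaged 7.78 at 24 h and 7.54 at 48 h in head, against 8.63 at 0 h, and 7.23 and 6.80 in palp, against 7.99 at 0 h. The 8 hemocyte genes averaged 9.43 and 9.02 in head, against 10.2 at 0 h, and 9.30 and 8.66 in palp, against 9.74 at 0 h. In body the fat body genes averaged 6.47 and 6.04, against 6.98 at 0 h, and the hemocyte genes 7.29 and 5.87, against 8.04 at 0 h. In antenna the fat body genes averaged 6.55 and 6.05, against 7.34 at 0 h, and the hemocyte genes 7.78 and 7.27, against 8.33 at 0 h. Some ranges overlapped, as for the fat body genes in body, at 5.32 to 7.41 at 48 h and 6.43 to 7.28 at 0 h. These averages were not tested. The part of these cells in the Lip2 result was not tested.

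Where Lip2 was expressed before fasting could be tested across parts. At 0 h it was lower in body than in head by a log2 difference of -1.30 ± 0.35 (limma adjusted p = 0.0023) and lower than in palp by -1.42 ± 0.35 (limma adjusted p = 0.00109), each with 85.9% of features called. Antenna was below head, with a log2 difference of -3.33 ± 0.37 (limma adjusted p = 5.2e-07) and 49% of features called. Palp and head were not told apart (0.12 ± 0.35, limma adjusted p = 0.865), where 53.9% of features were called.

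Lip3 was an antennal transcript in unfasted flies. At 0 h it measured 4.22, 5.88, 6.05 and 5.62 in antenna, and in head it ranged from 2.53 to 2.68. All antenna arrays exceeded all head arrays, and Lip3 was at least 2.72-fold higher in antenna, against a log2 signal of 4. It reached 4 at 0 h in antenna alone, so no test of that difference is given. In antenna Lip3 measured 3.63, 5.67, 5.15, 5.86 and 4.81 at 24 h and 4.16, 4.89, 5.28, 4.96 and 5.49 at 48 h. These overlapped with 0 h, and the differences were -0.42 ± 0.46 (limma adjusted p = 0.634) and -0.49 ± 0.46 (limma adjusted p = 0.502).

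Palp and head had Lip3 below 4 on every array at all 3 times. Body had it at or near the floor at 0 h, from 2.08 to 2.14, and at 48 h, from 2.13 to 2.31. At 24 h the body arrays stood at 4.45, 2.80, 2.89, 6.30 and 3.67, all above every other body array, with 2 of 5 above 4 and a spread of 1.44 (SD, n = 5). It missed the filter in body and was not tested there; with no filter the difference of 24 h from 0 h was 1.91 (limma adjusted p = 0.0481). No test of this change against that in head or palp is given, since Lip3 was dim in both throughout.

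Lip4 was bright in all parts. In palp it ranged from 11.9 to 12.4 over all 14 arrays, and in antenna from 9.00 to 9.75. At 0 h palp exceeded head by 1.91 ± 0.16 (limma adjusted p = 1.07e-08), antenna was below head (-1.15 ± 0.17, limma adjusted p = 1.83e-05) and body was below palp (-2.09 ± 0.16, limma adjusted p = 9e-10). Body and head were not told apart (-0.17 ± 0.16, limma adjusted p = 0.326). Neither fasting time passed in palp, where the differences were -0.05 ± 0.10 and -0.20 ± 0.10, or in antenna, where both were 0.14 ± 0.15.

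Lip4 in fasted body was lower and more scattered at 48 h. It measured 10.44, 10.15, 9.18, 10.22 and 9.44 at 24 h and 9.41, 8.60, 10.04 and 7.41 at 48 h, against 10.33, 9.80, 9.87, 10.56 and 10.11 at 0 h. One array of 48 h lay within the unfasted range and the other 3 below it, with replicate 4 the lowest. Lip4 fell by 1.27 ± 0.44 at 48 h (limma adjusted p = 0.0287), and without replicate 4 the difference was -0.79 (limma adjusted p = 0.086). The call was also lost without replicate 1 or replicate 4 of 0 h or replicate 2 of 48 h (limma adjusted p = 0.0531, 0.0621 and 0.0678). At 24 h the difference was -0.25 ± 0.41 (limma adjusted p = 0.663).

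In head Lip4 measured 10.59, 11.10, 10.73, 10.89 and 10.48 at 24 h and 10.77, 10.50, 10.58 and 10.16 at 48 h, against 10.75, 10.24, 10.24, 10.48 and 9.83 at 0 h. All 3 times overlapped, and the differences from 0 h were 0.45 ± 0.17 (limma adjusted p = 0.0877) and 0.19 ± 0.18 (limma adjusted p = 0.448). That of 24 h was called with array weights (0.38, limma adjusted p = 0.0439) and without replicate 1 of 0 h (0.56, limma adjusted p = 0.0448). The change at 48 h was lower in body than in head, by a log2 difference of -1.47 ± 0.38 (limma adjusted p = 0.0034), and lower than in palp, by -1.08 ± 0.38 (limma adjusted p = 0.0354). The comparison with palp did not pass without the 5 arrays that stood apart (limma adjusted p = 0.0628) or without the filter (limma adjusted p = 0.0509).

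Lip1 was dim in every part: it was at most 2.82 on all 56 arrays and at the floor on every body array, and it was tested nowhere. Among protein-coding genes its next neighbour on 2L is Lip2, and Lip2 was bright in 3 of the 4 parts. Lip4 lies beside CG18301 and CG18302, also acid lipase genes of 2L, while mag is on 3L and Lip3 on 3R.

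The fly genome holds further acid lipase genes, and 18 of them had a probe set of their own. The list was drawn up with results of these data known. In body 12 of them were bright enough to test, and at 48 h 9 fell and none rose, against 21% of all features lower and 29.8% higher. Their median difference was -1.61, and that of all features 0.10. The count leaves out genes too dim to test. Of these, CG31089 averaged 4.42 at 24 h and 3.28 at 48 h, against 2.23 at 0 h. CG11600 went the other way, at 2.29 and 2.08, against 3.80 at 0 h. CG18301, the neighbour of Lip4, fell by 5.34 ± 0.89 (limma adjusted p = 0.000476), with 6.17 ± 2.54 at 48 h (SD, n = 4), against 11.51 ± 0.21 at 0 h (SD, n = 5).

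CG18302 next to it fell by 3.42 ± 0.81 in body. CG18530 fell by 3.63 ± 0.62 and CG11608 fell by 3.57 ± 0.48. Smaller falls were those of CG31872 (-1.75), CG11598 (-1.61), CG17097 (-1.60), CG18284 (-1.40) and CG8093 (-0.95), and CG31091, CG2772 and CG7329 did not pass. At 24 h CG11598 fell by 0.76 ± 0.20, CG17097 fell by 0.64 ± 0.17 and the other 10 did not pass, against 12% of all features lower. Beside them the male accessory gland list averaged 13.4 and 12.7 in body at 24 h and 48 h, against 13.8 at 0 h, with all 11 entries at or above 4 on each array. The part of that organ, like that of the midgut list above, was not tested.

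**Figure D4:**
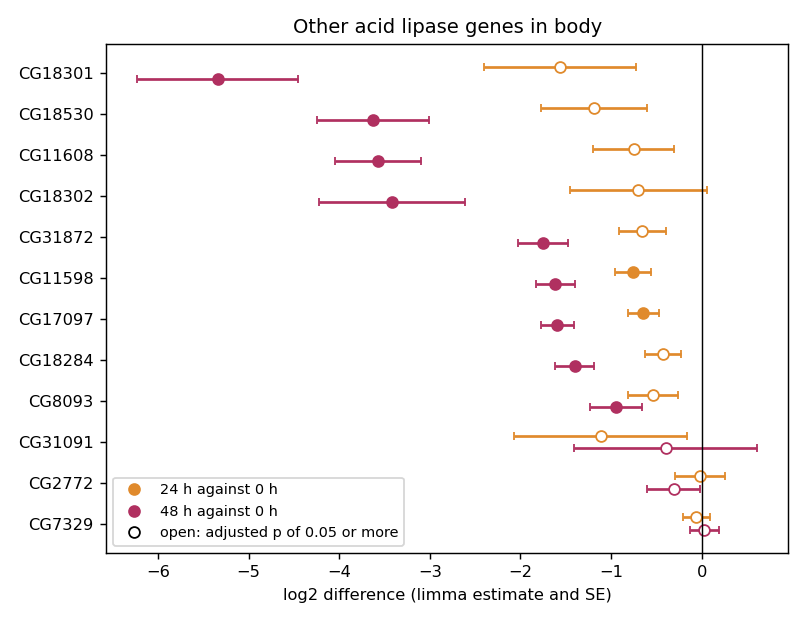
Log2 difference from 0 h in body (horizontal axis) of the 12 other acid lipase genes tested there, at 24 h and 48 h; points are limma estimates, bars standard errors, and filled points passed an adjusted p of 0.05. At 48 h 9 genes lie left of 0 with filled points, down to -5.34 for CG18301.

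Outside body, 3 of the 18 genes were bright enough to test in each part. CG18302 fell at 48 h, with differences of -1.39 ± 0.32 in palp, -0.74 ± 0.19 in antenna and -1.49 ± 0.30 in head. CG31871 fell in palp, with differences of -0.74 ± 0.19 at 24 h and -0.81 ± 0.20 at 48 h. CG6753 rose in head by 0.95 ± 0.29 at 24 h (limma adjusted p = 0.0358). Before fasting 11 of 15 tested were higher in body than in head and 4 lower, where 31.4% and 54.5% of all features were. The median difference was 6.15, against -0.55 for all features. A gene dim in the other parts could enter that test only where its body arrays were bright. The count and the median thus depend on the filter and are no independent support for higher levels in body.

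Neutral lipases, the family of the pancreatic lipases, act beside acid lipases in fat digestion, and 27 of 30 listed were on the array. In body at 48 h 2 of 12 tested rose and 8 fell, against 29.8% of all features higher and 21% lower, with a median of -1.46, against 0.10 for all features. CG17192 was at the floor on every 48 h array and at 10.50 ± 1.13 at 0 h (SD, n = 5), at least 90.6-fold lower. CG6295 fell by 4.00 ± 0.37 and CG18258 fell by 3.58 ± 0.37, whereas CG6283 rose by 1.95 ± 0.21. In palp at 48 h 2 of 11 rose and 5 fell, against 17.4% of all features higher and 15.7% lower. There CG7367 rose by 2.73 ± 0.34, and CG10357, dim on every 48 h array, was at least 6.32-fold lower than at 0 h. In head at 48 h 1 of 12 rose and 5 fell, against 13.2% of all features higher and 12.3% lower. The one that rose was again CG7367, by 2.68 ± 0.19, and the largest fall was that of CG5162, with a difference of -3.44 ± 0.45.

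Of 19 listed regulators and lipid-handling partners of these enzymes, 17 had a probe set and 16 were tested in each part. Hr96, which encodes the receptor that acts on mag, fell in body, with differences of -0.44 ± 0.11 at 24 h (limma adjusted p = 0.017) and -0.39 ± 0.12 at 48 h (limma adjusted p = 0.0184), and did not pass in the other parts. foxo rose in body by 0.59 ± 0.17 and 0.58 ± 0.18 (limma adjusted p = 0.03 and 0.0205) and likewise did not pass elsewhere. Whether the changes of Hr96 and foxo in body differed from those in other parts is not shown by these calls.

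The triglyceride lipase gene bmm (brummer), which acts on stored fat, rose in all 8 comparisons with 0 h, by 0.83 to 1.87. The sugar-responsive factor sug (sugarbabe) fell in all 8, by differences from -4.11 to -2.30. apolpp, which encodes the main lipoprotein of the blood, also fell in all 8, from -1.87 to -0.39. The comparisons of a part at 24 h and 48 h share their 0 h arrays, so these 8 are not independent.

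Over the 12 group means, 11518 features were ranked by how closely they followed each member, as a description. Closest to mag were the transporter gene Mdr50 (Pearson r = 0.92), Pgm2a (0.89), CG31380 (0.89), CG14949 (0.89) and Pgant9 (0.88). Mdr50 was high in fasted palp and head, at 7.51 and 7.97 in palp and 8.42 and 8.67 in head at 24 h and 48 h, against 3.20 in palp and 3.70 in head at 0 h. In antenna it was low, at 3.56 and 3.28 at 24 h and 48 h, against 2.75 at 0 h. In unfasted body it was 7.84, above unfasted palp and head as mag was, and in fasted body it was 6.85 and 7.70.

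Closest to Lip2 were Diedel (0.99), Gbp2 (0.98), which encodes a growth-blocking peptide, and CG42369 (0.98). Closest to Lip3 were Ugt49B1 (0.93), CG32235 (0.92) and Or82a (0.92), an odorant receptor gene. Closest to Lip4 were Adgf-C (0.98), CG11437 (0.97) and vvl (0.97). All 12 points share the division of the flies into 4 parts and 3 times. Among the members themselves the correlation with mag was 0.36 for Lip2, -0.57 for Lip3 and 0.12 for Lip4.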

How the data were processed

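RNA was amplified with the NuGEN Ovation system, per the labels' protocols, and the deposited log2 signals were made with GCRMA, per the submitters' processing notes, which give no version. The columns share 1 distribution, so a change in total RNA cannot be read from them, and the number of arrays limits the precision. Of 18952 probe sets, 183 controls were left out, 4720 had no gene and 402 several; the brightest probe set stood for each of 11982 genes, which gave 17104 features. A feature was tested where its log2 signal reached 4 on at least 4 arrays of the fit. limma 3.58.1 (R 4.3.3) fitted group means for each body part, for the 0 h arrays, and for all 56 arrays for differences between parts, with Benjamini-Hochberg adjustment over all features tested and a threshold of 0.05. The fit was tested on simulated data. A fold change against a group below 4 on every array is given as a bound against 4.

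Replicates are pools of flies, and the labels give the same pool number to samples of 1 pool. Residuals of arrays of one body part from the same pool correlated on average at 0.11 in body, 0.13 in palp, 0.12 in antenna and 0.20 in head, against -0.02 to -0.04 for different pools. The pool entered as a block in an alternative fit. With it, 3987 and 4524 features were called in head at 24 h and 48 h, against 1564 and 2318 without it, and 273 against 515 in antenna at 24 h.

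The members, lists, markers and alternatives were chosen with earlier results of these data known. All members were named. All 12 other acid lipase genes tested in body were named. From the neutral lipases and the regulators and partners, only some of the genes that passed were named. Gene names came from the platform annotation, updated through RefSeq's table, which also gave neighbouring genes. Sequences were not used here.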

Additional observations from a re-analysis of the deposited data

Results flagged for a closer look

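Of 36 groups of 4 or 5 arrays in which a member reached a log2 signal of 4 at least once, 1 held an array far from the others: Lip2 in head at 0 h, where replicate 5 stood at 6.11 and the other 4 between 7.82 and 8.09. Chance alone flags about 1 in 20 such groups.

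Members changed differently in different parts of the fly. For Lip2 the change in body exceeded that in head by 1.60 at 24 h and 1.71 at 48 h and that in palp by 1.46 and 1.57. For Lip4 the change at 48 h in body differed from that in head by -1.47 and from that in palp by -1.08. These differences were tested in the fit of all 56 arrays and passed. That fit shares 1 spread per gene over the parts, which for Lip4 was wider in body than in head or palp at 48 h.

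For mag the change in body differed from that in head by -8.52 at 24 h and -8.45 at 48 h and from that in palp by -9.38 and -9.99. mag was chosen for this contrast, so the difference was not tested. Every fasted body array was below, and every fasted palp and head array above, all unfasted arrays of its part.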

How the results depend on the processing

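The differences of mag in body, palp and head kept their direction from 0 h in every setting tried, within -2.83 to -2.56 and -3.71 to -3.37 in body at 24 h and 48 h when 1 array was left out. Calls of the members that were lost or gained stand beside them above, except those of Lip4 in body that follow. Reversed directions touched differences that had not passed: Lip3 in antenna at 24 h was 0.0745 without the 5 arrays that stood apart, and Lip2 in palp against head ranged from -0.2456, without head replicate 5, to 0.3567; the cause was not tested. Lip4 in body at 48 h did not pass without the filter (limma adjusted p = 0.0668), and its difference of 48 h from 24 h, not called in the fit reported, was called in one fit over all arrays (-1.02, limma adjusted p = 0.00557) and without replicate 3 of 48 h (-1.41, limma adjusted p = 0.0482). Of the calls of the members, the pool as a replicate block changed that of mag in antenna at 24 h (2.72, lost with a fixed block) and that of Lip2 in body at 48 h (0.5519, made with a random block), and no other. Counts of called features moved more. With array weights they were 1101 in antenna at 24 h, 2832 and 4550 in head at 24 h and 48 h and 3804 in body at 24 h; 45, 671, 1765 and 932 for 48 h against 24 h in antenna, head, palp and body; and, between parts, 851 and 1299 for antenna minus head, 554 and 1460 for palp minus head, 2575 for body minus head at 24 h and 2245 for body minus palp at 24 h. With the pool as a fixed replicate block they were 273 in antenna at 24 h, 3987, 4524 and 511 in head (24 h, 48 h and 48 h against 24 h), 595 and 974 for antenna minus head, and 436, 2159 and 1561 at 24 h for palp minus head, body minus head and body minus palp. As a random replicate block it gave 3700, 4321 and 635 in head and 38 for antenna 48 h against 24 h. With no filter the counts were 335 in antenna at 24 h and 1, 53 and 225 for 48 h against 24 h in antenna, head and palp. One fit over all arrays gave 3121 in body at 24 h and, for 48 h against 24 h, 44 in antenna, 272 in head and 1533 in body. The midgut covariate gave 35 for head 48 h against 24 h, and leaving out the 5 arrays gave 5 for antenna 48 h against 24 h. When 1 array was left out, counts ranged from 278 to 753 (antenna, 24 h), 1029 to 1807 (antenna, 48 h), 0 to 14 (antenna, 48 h against 24 h), 1070 to 2657 (head, 24 h), 34 to 176 (head, 48 h against 24 h), 89 to 482 (palp, 48 h against 24 h), 1361 to 3172 (body, 24 h) and 267 to 917 (body, 48 h against 24 h).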

Other observations

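Single low or high arrays of Lip2 came from the same pools in several parts. At 0 h the samples of pool 9 had the lowest Lip2 of their group in body (5.87), palp (6.79) and head (6.11), while in antenna the sample of that pool had the highest (4.91). Pool 8 had the lowest fasted head values, at 5.64 at 24 h and 5.90 at 48 h, against 7.82 at 0 h. In body pool 8 had the highest value at 48 h, 7.36, against 6.53 at 0 h. With the pool as a fixed block the differences of Lip2 in head were -1.53 at 24 h and -1.49 at 48 h (limma adjusted p = 0.000305 and 0.000324). Pool 9 had a head array at 0 h alone, so with that block its low array did not enter these differences. Without the block, fits that left out 1 array gave differences down to -1.50 at 24 h and -1.53 at 48 h. Their limma adjusted p went down to 0.000821 and 0.00064. The cause of the low and high values shared within a pool was not tested.

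Lip3 in body at 24 h was high on the arrays of pool 7 (6.30) and pool 4 (4.45) and dim in pools 5, 6 and 8 (2.80, 2.89 and 3.67). At 48 h body samples of pools 4 and 7 stood at 2.14 and 2.31.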
